A study of Homo sapiens with 12 samples.

Results

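The genes described are 40 members of the forkhead (FOX) family, taken by symbol from the RefSeq gene table of GRCh38.p14, out of 20037 protein-coding genes on the autosomes, X and Y. All 40 symbols matched a coding gene. A gene was counted as having a peak where a peak of a deposited list overlapped the gene or the 2 kb on either side by at least 1 bp. The family was divided into 25 lineage factors and 15 broadly expressed genes, the second being FOXJ2, FOXJ3, FOXM1 and the FOXK, FOXN, FOXO and FOXP genes. Chromatin immunoprecipitation followed by sequencing (ChIP-seq) had been carried out in H1, an established human embryonic stem cell line grown in mTESR1 medium. The groups were YTHDF1 ChIP and input from H1 cells treated with an shRNA against YTHDF1 (knockdown), and YTHDF1, RNF2 and H2AK119ub ChIP and input from untreated wild-type H1 cells. The labels give 2 replicates per group, 12 libraries in all. They name no control shRNA for the wild-type cells, and neither the shRNA sequence, the number of clones nor the remaining YTHDF1 level. The authors deposited 1 peak list per ChIP group, made from both replicates together, so no spread between replicates could be computed and no p-value is given. The lists hold binding sites and not expression, so neither the identity of the cells nor the knockdown could be checked against transcripts.

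Forkhead proteins bind DNA through a conserved winged-helix domain. Many act as pioneers or patterning factors that are switched on in single lineages, such as the FOXA proteins in endoderm, FOXF and FOXC proteins in mesoderm and FOXE proteins in thyroid and lens. Others act in most cells, such as FOXM1 in the cell cycle and the FOXO proteins downstream of insulin signalling. RNF2 is the ubiquitin ligase at the core of Polycomb repressive complex 1 (PRC1), which marks a lysine of histone H2A (H2AK119ub) and keeps lineage genes silent in pluripotent cells. PRC1 is known to gather at promoters rich in CG dinucleotides. YTHDF1 is a reader of N6-methyladenosine on RNA, and the study's title links it to PRC1 and H2AK119ub.

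The bases just before the gene start are shown for the members with a wild-type YTHDF1 peak on them and for 3 of the 4 without any RNF2 peak (not FOXS1), since these are the ends of the range described below. The sequences are the 250 bases upstream of the start (RefSeq, GRCh38.p14), 5′ to 3′ on the strand of the gene, with each CG dinucleotide in capitals. Those with YTHDF1 lie at chr14:37595250-37595499 (minus strand) for FOXA1, chr1:47437794-47438043 (plus) for FOXD2, chr1:63322317-63322566 (plus) for FOXD3, chr2:88452694-88452943 (minus) for FOXI3, chr12:109309285-109309534 (minus) for FOXN4 and chr1:41361184-41361433 (plus) for FOXO6. The 3 without RNF2 lie at chr5:170105647-170105896 (plus) for FOXI1, chr17:28506098-28506347 (plus) for FOXN1 and chr11:118971511-118971760 (plus) for FOXR1.
FOXA1: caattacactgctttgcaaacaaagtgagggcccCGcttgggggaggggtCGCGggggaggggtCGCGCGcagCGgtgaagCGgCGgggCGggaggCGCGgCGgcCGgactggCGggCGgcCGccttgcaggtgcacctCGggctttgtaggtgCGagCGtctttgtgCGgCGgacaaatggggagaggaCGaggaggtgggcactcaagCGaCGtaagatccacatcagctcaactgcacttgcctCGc
FOXD2: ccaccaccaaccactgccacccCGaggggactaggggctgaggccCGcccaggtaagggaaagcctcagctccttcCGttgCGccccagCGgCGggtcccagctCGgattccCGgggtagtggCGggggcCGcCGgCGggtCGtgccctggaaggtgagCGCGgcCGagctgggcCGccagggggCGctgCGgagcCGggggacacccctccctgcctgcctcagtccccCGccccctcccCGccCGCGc
FOXD3: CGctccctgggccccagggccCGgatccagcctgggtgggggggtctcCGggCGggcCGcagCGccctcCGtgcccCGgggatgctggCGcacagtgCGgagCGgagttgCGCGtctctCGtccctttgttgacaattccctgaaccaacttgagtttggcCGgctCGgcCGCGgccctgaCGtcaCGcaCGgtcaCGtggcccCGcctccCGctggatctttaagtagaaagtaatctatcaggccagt
FOXI3: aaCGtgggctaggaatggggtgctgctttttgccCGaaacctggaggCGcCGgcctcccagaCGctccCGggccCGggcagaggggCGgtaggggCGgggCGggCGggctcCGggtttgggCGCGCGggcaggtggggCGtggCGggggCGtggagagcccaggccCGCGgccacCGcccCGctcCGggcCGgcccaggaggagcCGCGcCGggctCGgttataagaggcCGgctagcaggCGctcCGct
FOXN4: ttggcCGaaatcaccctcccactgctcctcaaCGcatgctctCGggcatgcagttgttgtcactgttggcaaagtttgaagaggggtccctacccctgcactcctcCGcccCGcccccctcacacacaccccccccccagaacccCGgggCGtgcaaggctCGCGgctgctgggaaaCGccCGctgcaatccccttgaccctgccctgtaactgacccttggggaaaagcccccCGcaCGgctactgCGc
FOXO6: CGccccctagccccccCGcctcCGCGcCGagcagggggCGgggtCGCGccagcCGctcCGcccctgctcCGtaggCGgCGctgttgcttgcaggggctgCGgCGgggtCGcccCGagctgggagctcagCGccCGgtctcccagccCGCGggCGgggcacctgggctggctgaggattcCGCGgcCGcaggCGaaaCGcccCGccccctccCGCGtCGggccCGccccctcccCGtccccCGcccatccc
FOXI1: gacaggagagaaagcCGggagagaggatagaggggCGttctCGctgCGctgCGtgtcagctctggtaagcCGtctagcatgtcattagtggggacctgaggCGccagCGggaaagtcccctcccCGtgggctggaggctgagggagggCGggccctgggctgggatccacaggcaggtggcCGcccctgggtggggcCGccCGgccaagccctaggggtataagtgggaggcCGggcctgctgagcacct
FOXN1: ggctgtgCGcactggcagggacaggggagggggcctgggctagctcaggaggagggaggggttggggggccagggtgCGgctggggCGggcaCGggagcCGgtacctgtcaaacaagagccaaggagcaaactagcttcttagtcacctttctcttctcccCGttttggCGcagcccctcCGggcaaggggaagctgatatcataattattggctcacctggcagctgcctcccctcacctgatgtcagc
FOXR1: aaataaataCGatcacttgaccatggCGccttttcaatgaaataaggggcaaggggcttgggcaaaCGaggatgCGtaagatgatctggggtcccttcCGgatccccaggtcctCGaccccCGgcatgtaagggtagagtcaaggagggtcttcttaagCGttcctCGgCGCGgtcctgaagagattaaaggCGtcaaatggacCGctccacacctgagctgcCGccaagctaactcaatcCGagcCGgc

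These stretches held 26 CG dinucleotides at FOXA1, 24 at FOXD2, 24 at FOXD3, 31 at FOXI3, 14 at FOXN4 and 34 at FOXO6. They held 14 at FOXI1, 8 at FOXN1 and 16 at FOXR1. A YTHDF1 peak lay on all 250 bases at FOXA1 and FOXO6, on 82 at FOXN4, on 64 at FOXI3, on 53 at FOXD3 and on 38 at FOXD2, and RNF2 covered the whole stretch at each of these genes. Of the 28 members with such a sequence, 23 had RNF2 on it, against a background of 64.0% of 13820 coding genes, and 6 had YTHDF1 on it, against 13.7%. The 28 sequences had a median of 24.5 CG dinucleotides (range 8 to 44), against 17 over the coding genes. All 28 held at least 1 CG, as did 96.96% of the coding genes. Members with RNF2 on these bases had a median of 26 and the 5 without (FOXD4, FOXI1, FOXJ3, FOXN1 and FOXR1) a median of 13. The same medians over all coding genes were 22 and 4. FOXJ3 had 8 at its outermost start, but 35 and 32 at its starts 645 and 925 bases further in, and RNF2 lay on all 250 bases before both of those. At FOXD4 an RNF2 peak began 4 bp inside the start. The CG counts of members with and without RNF2 overlapped, with 8 at FOXB1 and 13 at FOXD1, where RNF2 lay on all 250 bases. By group, the median CG count was 24 over 17 lineage factors and 33 over 11 broadly expressed genes. RNF2 lay on these bases at 82.4% and 81.8% of them. Over 25 members with both values, the CG count and the widest RNF2 peak had a Spearman correlation of -0.304, which was not tested.

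Nearly every member had an RNF2 peak and every member an H2AK119ub island, though these could cover little of a gene. RNF2 peaks were found at 36 of the 40 genes, beside 71.7% of all coding genes, and H2AK119ub islands at 40, beside 79.0%. By group, RNF2 was at 22 of 25 lineage factors and 14 of 15 broadly expressed genes, and H2AK119ub at 25 and 15. H2AK119ub covered a median of 100% of the gene with its flanks for lineage factors and 27.3% for broadly expressed genes. The lowest share was 1.22%, at FOXP2. Gene length differed between the groups: the lineage factors had a median length of 3.49 kb and the broadly expressed genes one of 84.9 kb. Among coding genes of at most 10 kb, the class that holds every lineage factor, 55.6% had RNF2 and 67.0% H2AK119ub. Among those over 10 kb, which hold every broadly expressed member, the shares were 78.1% and 83.8%. The difference between the groups was not tested, since the members had been chosen with earlier results of these data known.

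**Figure D1:**
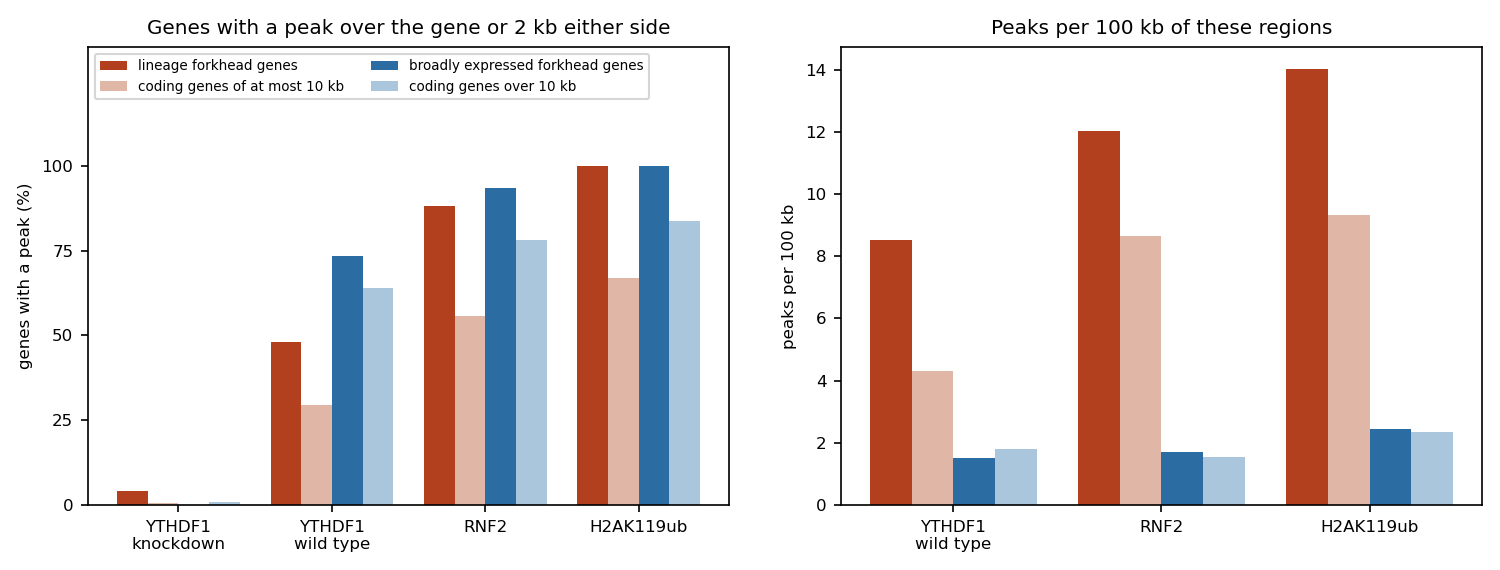
Left, percentage of genes with a peak over the gene or 2 kb either side in each deposited list (knockdown YTHDF1, wild-type YTHDF1, RNF2, H2AK119ub). Right, peaks per 100 kb of these regions. Bars show 25 lineage forkhead genes beside coding genes of at most 10 kb, and 15 broadly expressed forkhead genes beside coding genes over 10 kb. H2AK119ub reached 100% of both forkhead groups.

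The RNF2 peaks over lineage factors were mostly wider and of higher fold than those over broadly expressed genes, a difference that was not tested. The widest RNF2 peak over a lineage factor had a median of 31.1 kb over the 22 genes with one (range 3.78 to 53.1 kb), against 4.50 kb over 14 broadly expressed genes (1.11 to 27.6 kb) and 2.02 kb over the 14368 coding genes with one. The fold enrichment of the strongest RNF2 peak, the authors' own value for each peak, had medians of 74.1, 6.42 and 4.99. The ranges over the forkhead groups overlapped, from 5.38 to 99.6 for lineage factors and from 2.86 to 40.1 for the others. A peak of at least 20 kb lay over 14 of 25 lineage factors and 1 of 15 broadly expressed genes, beside 2.14% of all coding genes and 3.9% of those of at most 10 kb. RNF2 covered 100% of the gene with its flanks at 17 lineage factors and at none of the broadly expressed genes, where the median covered share was 3.73%. Such full coverage was found at 1.55% of all coding genes, 4.74% of those of at most 10 kb and 0.279% of those over 10 kb. The regions of the broadly expressed genes are longer. Start windows were also taken, 2 kb either side of the gene start, or of both ends where the strand was not known. In these, the median covered share was 100% for lineage factors and 67.5% for broadly expressed genes. The windows were fully covered at 19 and 4 genes. H2AK119ub covered a median of 100% of these start windows in both groups.

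**Figure D2:**
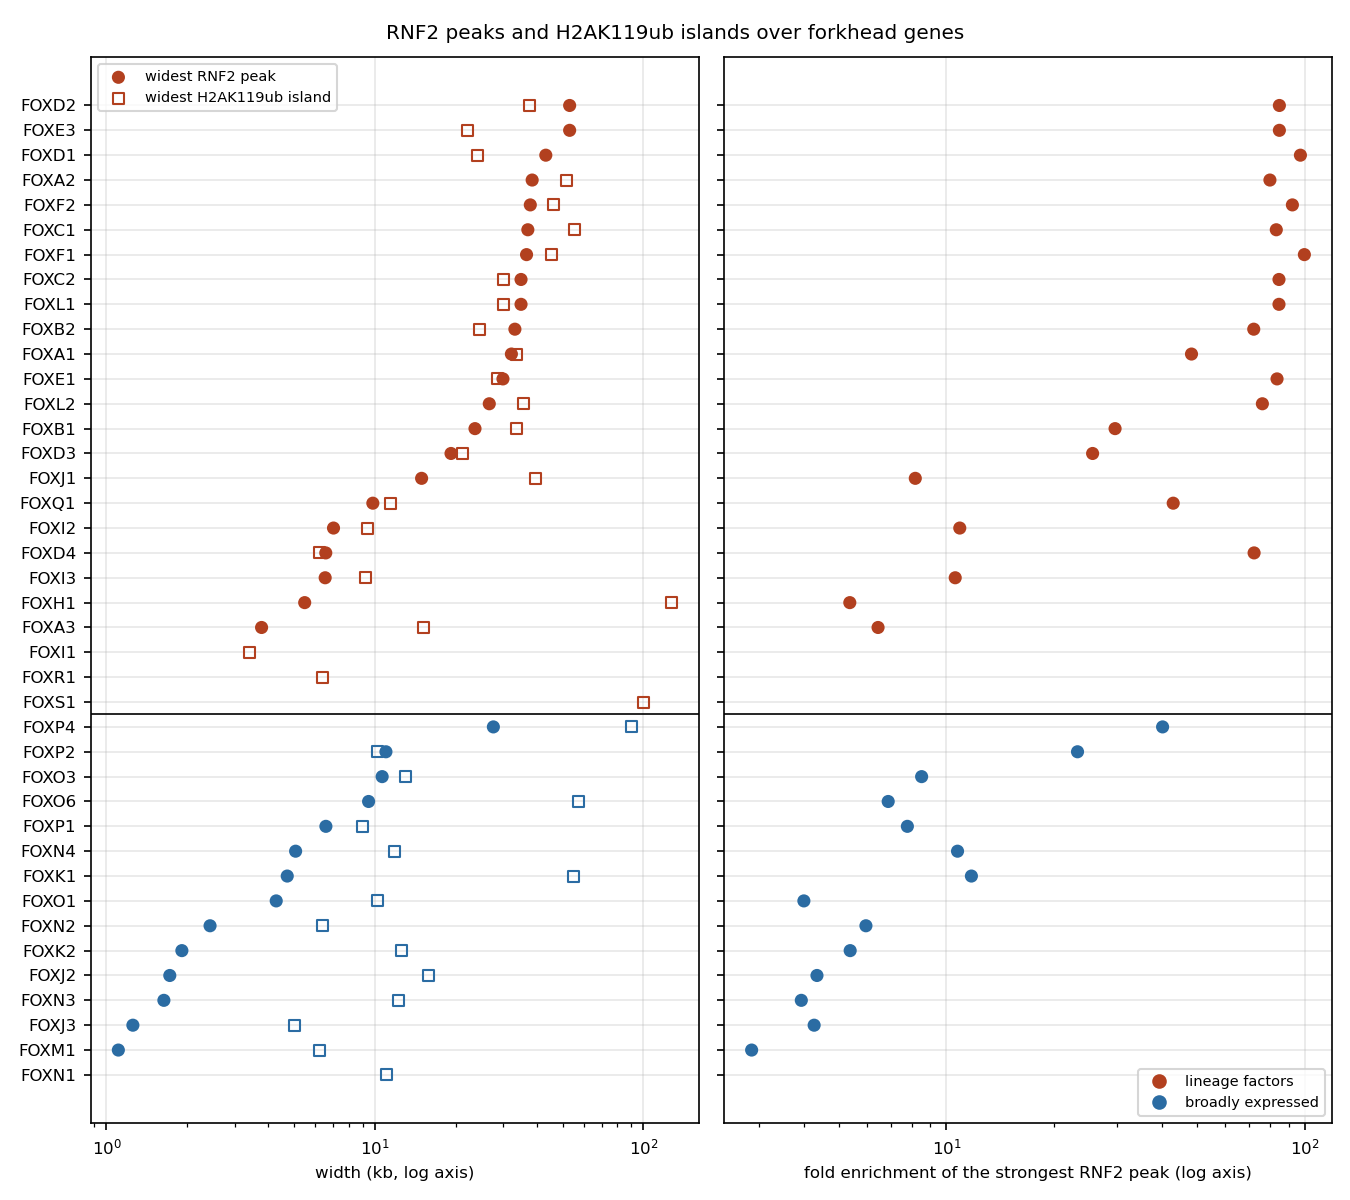
Each row is 1 forkhead gene, lineage factors above the line and broadly expressed genes under it. Left, width in kb (log axis) of the widest RNF2 peak (filled circles) and the widest H2AK119ub island (open squares). Right, fold enrichment of the strongest RNF2 peak (log axis). The 13 widest RNF2 entries of the lineage group reach from 26.7 to 53.1 kb, above all broadly expressed genes except FOXP4 at 27.6 kb.

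The widest RNF2 domains reached across whole genes and beyond. FOXD2, a factor of mesoderm-derived tissues, and FOXE3, a lens factor, are 19.99 kb apart on chromosome 1 and shared 1 RNF2 peak of 53.1 kb (47409191 to 47462314) at 84.9-fold. Only 24 of the 29310 RNF2 peaks in the list were wider. H2AK119ub was listed there as islands of 22.2 kb over FOXE3, ending at 47425800, and 37.6 kb over FOXD2, starting at 47426601. Whether so short a break depends on the settings of the caller was not tested. FOXD1, a factor of the kidney stroma and retina, had a peak of 43.3 kb at 97.1-fold that reached from -6.36 to 36.9 kb relative to its start (negative values are upstream), and an island of 24.2 kb. FOXA2, a pioneer factor of endoderm, had 38.5 kb at 79.9-fold and an island of 51.6 kb. FOXA1, its close relative, had 32.2 kb at 48.3-fold and an island of 33.8 kb, and both also overlapped the gene TTC6.

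Forkhead clusters on chromosomes 6 and 16 were covered in separate blocks. On chromosome 6, FOXQ1, FOXF2 and FOXC1 lie 74.8 kb and 214.3 kb apart. FOXF2, a factor of the gut mesenchyme, had an RNF2 peak of 37.9 kb at 92.2-fold, and FOXC1, a factor of the eye and cranial mesenchyme, had 37.1 kb at 83.2-fold. FOXQ1, an epithelial factor, had a shorter peak of 9.82 kb at 42.9-fold. On chromosome 16, FOXF1, FOXC2 and FOXL1 lie 51.4 kb and 8.82 kb apart. FOXF1, needed in lung and gut mesenchyme, had its own peak of 36.7 kb at 99.6-fold, the highest fold of the family, which 22 RNF2 peaks of the list exceeded. That peak also overlapped the noncoding gene FENDRR. FOXC2, a factor of lymphatic vessels, and FOXL1, a factor of the gut mesenchyme, shared 1 RNF2 peak of 35.0 kb at 84.6-fold and 1 island of 30.2 kb. The values of FOXC2 and FOXL1, and the RNF2 values of FOXD2 and FOXE3, are therefore not separate observations.

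The other lineage domains of at least 20 kb were those of FOXB2 (33.2 kb, 72.0-fold), FOXE1 (30.0 kb, 83.6-fold), a thyroid factor, FOXL2 (26.7 kb, 76.1-fold), an ovarian factor, and FOXB1 (23.6 kb, 29.5-fold), a factor of the hypothalamus. With that of FOXP4, described below, 13 distinct RNF2 peaks of at least 20 kb lay over members, which was 4.3% of the 302 such peaks in the list. Of the 13, 9 overlapped no coding gene outside the family. The other 4 also overlapped at least part of TTC6, MTHFSD, FOXL2NB or GMDS. Noncoding neighbours that they overlapped included LINC00261 at FOXA2, FOXD2-AS1, FOXF2-DT and FOXCUT. Among the 100 RNF2 peaks of highest fold in the list, 8 lay over a member. Of all 29310 RNF2 peaks in the list, 66 did.

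The other lineage factors had RNF2 in shorter stretches. FOXD3, known from both pluripotent cells and the neural crest, had 19.2 kb at 25.6-fold, with an island of 21.2 kb. FOXJ1, the regulator of motile cilia, had 14.9 kb at only 8.19-fold. FOXI2 and FOXI3, factors of ectoderm, had 7.01 kb at 10.9-fold and 6.53 kb at 10.6-fold, each over the gene start. FOXA3, the third FOXA factor, had 3.78 kb at 6.45-fold over its start. FOXH1, the partner of SMAD proteins in Nodal signalling, had 2 peaks of 5.47 and 4.05 kb at 4.72-fold and 5.38-fold. Both lay inside an island of 126.8 kb that overlapped 17 coding genes, FOXH1 among them. FOXD4 had 6.56 kb at 72.1-fold, but near-identical copies of this gene exist in the genome and the authors' handling of reads that match several copies is not given in the sources used here, so that value is uncertain.

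RNF2 was not listed at FOXI1, a factor of the inner ear and kidney, FOXR1, FOXS1 or FOXN1, the regulator of thymic epithelium. Each of these had H2AK119ub, with widest islands of 3.4 kb at FOXI1, 6.4 kb at FOXR1, 99.8 kb at FOXS1 and 11 kb at FOXN1. The scores of these islands were 15.8, 81.8, 1000 and 100.4. The score is of unstated scale, with 1000 the highest, which 3494 of the 43331 islands in the list had. The island at FOXS1 also lay over MYLK2, DUSP15 and TTLL9, and it overlapped RNF2 and wild-type YTHDF1 peaks more than 2 kb from FOXS1. With flanks of 5 kb, RNF2 lay at 23 lineage factors in place of 22, so the absence depends on the window for 1 of them. Whether RNF2 was absent at these genes or under the authors' threshold could not be told apart from peak lists.

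Start windows were again both ends where the strand was not known. Among the broadly expressed genes, 14 of 15 had RNF2 within 2 kb of the gene start, as had 22 of 25 lineage factors, beside 65.2% of all coding genes. H2AK119ub was there at 15 and 25, beside 73.8%. FOXP4 had 10 RNF2 peaks, the widest 27.6 kb at 40.1-fold over its start, which covered 75.8% of the gene and its flanks, and a single island of 90.6 kb over the whole. FOXP2, a factor of brain development, had 10.99 kb at 23.2-fold over its start, while RNF2 covered 1.44% of the gene, which is 607.4 kb long, and its flanks. FOXO6, a FOXO gene known mainly from brain, had 4 RNF2 peaks over 61.6% of the gene and flanks and an island of 57.2 kb. FOXK1 had 8 RNF2 peaks, the strongest 11.7-fold, and 80.9% of it lay under H2AK119ub. FOXN4, a retinal factor, had 3 RNF2 peaks with a top of 10.7-fold. FOXO3, an insulin-regulated factor, had 1 peak of 10.6 kb at 8.53-fold. FOXP1 had 7 RNF2 peaks up to 7.78-fold. The other 7 with RNF2 had lower top folds, of 2.86-fold at FOXM1, 3.94-fold at FOXN3, 4.003-fold at FOXO1, 4.28-fold at FOXJ3, 4.35-fold at FOXJ2, 5.39-fold at FOXK2 and 5.96-fold at FOXN2. Their widest peaks were at most 2.43 kb, apart from 4.29 kb at FOXO1. Over the 36 members with both, the widest RNF2 peak and the widest island had a Spearman correlation of 0.578 across genes, given as a description since neighbouring genes share peaks.

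**Figure D3:**
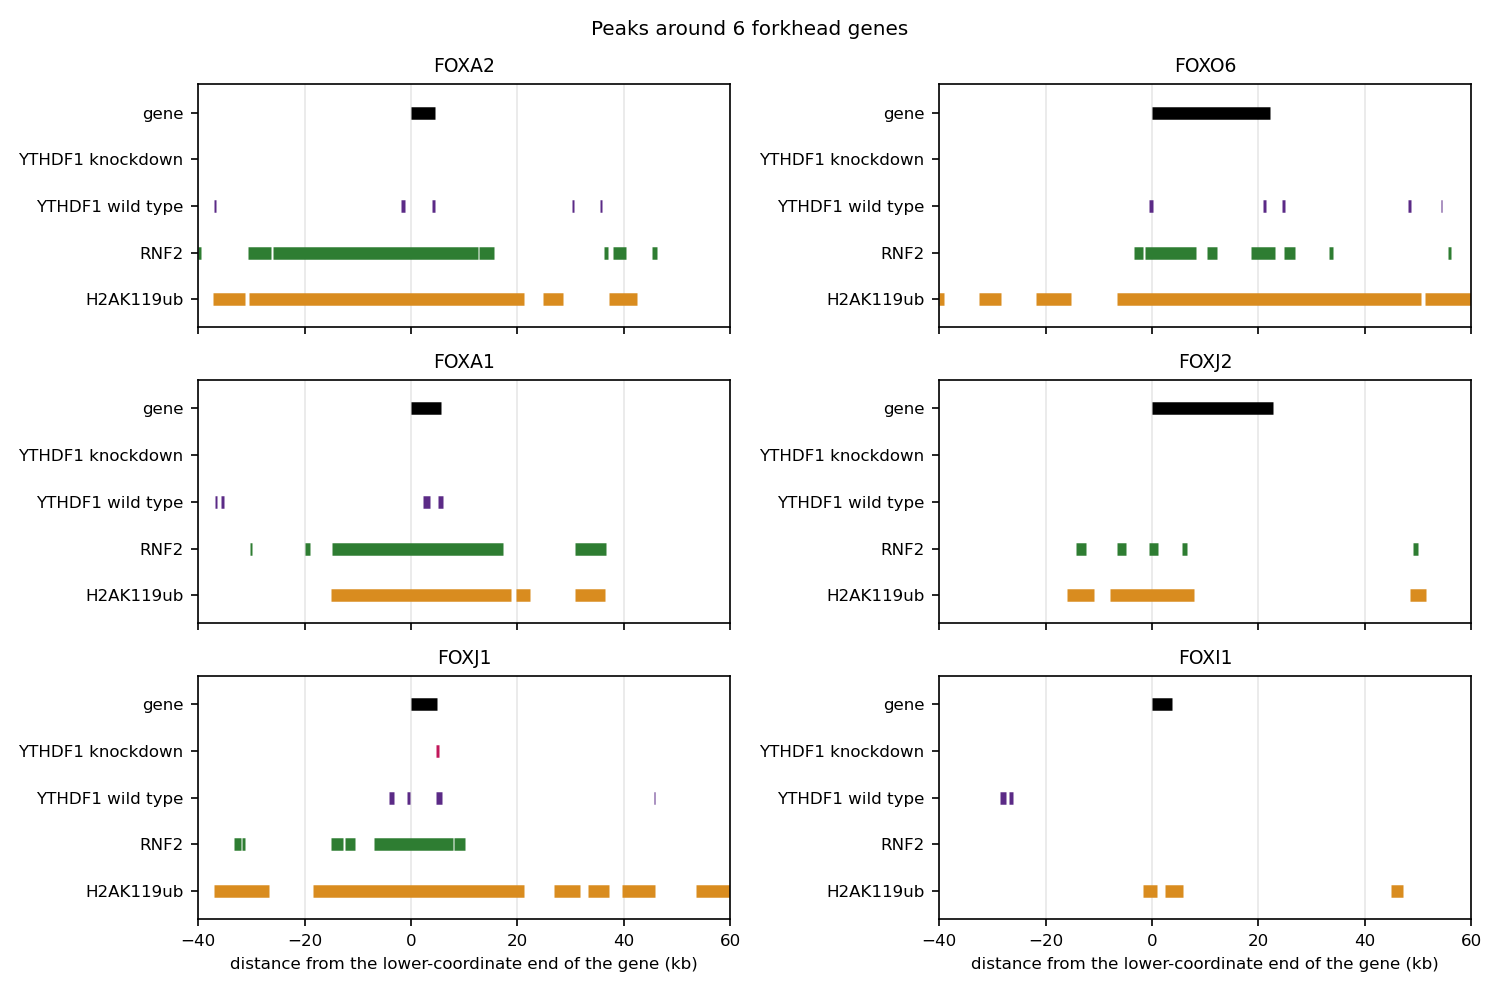
Peaks of the 4 lists around 6 forkhead genes, drawn to scale as the distance in kb from the lower-coordinate end of each gene (black), from -40 to 60 kb. At FOXA2 and FOXA1 a single RNF2 peak spans the gene, and at FOXO6 and FOXJ2 RNF2 forms several peaks. FOXI1 has H2AK119ub islands over the gene, with scores of 12.5 and 15.8, but no RNF2 peak. FOXJ1 has the only knockdown YTHDF1 peak over a member.

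In knockdown cells, 1 of the 40 members had a YTHDF1 peak, beside 0.843% of coding genes, and in wild-type cells 23 of 40 had one, beside 54.1%. The knockdown count was 1 of 25 lineage factors, beside 0.65% of coding genes of at most 10 kb, and 0 of 15 broadly expressed genes, beside 0.92% of those over 10 kb. Within 2 kb of the gene start, or of both ends where the strand was not known, as for FOXJ1, it was 1 of 40, beside 0.439%. The knockdown list held 226 peaks with a lowest −log10 q of 4.007, and the wild-type list 44498 with a lowest of 1.502, so the lists were not called alike. At a common −log10 q of at least 4, the counts were 1 member in knockdown cells and 3 in wild-type cells, beside 0.843% and 4.12% of coding genes. The 3 wild-type members were FOXJ1, FOXO6 and FOXP1. Depth was unknown for both lists, and no replicate spread was available for the difference.

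FOXJ1 was the member with YTHDF1 in both lists. Its knockdown peak (chromosome 17, 76141065 to 76141546) lay over the higher-coordinate end of the gene (76136333 to 76141245) at 4.95-fold, and 30 of the 226 knockdown peaks had a higher fold. Its wild-type peak (76141048 to 76142101) took in the whole knockdown peak, at 4.03-fold and a −log10 q of 5.19. A second wild-type peak of 3.04-fold lay beyond the other end of the gene. All of these lay on RNF2 and H2AK119ub. Across the lists, 72 of 226 knockdown peaks (31.9%) overlapped a wild-type peak.

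The strongest wild-type YTHDF1 peak of the family was at FOXO6, at 4.35-fold with a −log10 q of 6.44. It reached from -611 to 108 bp relative to the start (chromosome 1, 41360823 to 41361542), and 82 peaks of the list had a higher fold. A second FOXO6 peak of 3.08-fold lay within the gene, 20.8 to 21.4 kb from its start. FOXP1 had 8 peaks, of which the strongest, 3.38-fold with a −log10 q of 4.06, lay 189 to 1090 bp inside the gene on RNF2 and H2AK119ub. The other 7 lay 15.3 to 597.7 kb from the start on no RNF2 peak.

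The FOXA genes each had YTHDF1 in wild-type cells. FOXA1 had one peak of 3.37-fold over its start, from -262 to 647 bp, and another of 3.04-fold within the gene. FOXA2 had 3.42-fold over its higher-coordinate end and 2.81-fold beyond the lower one. FOXA3 had 2.98-fold within the gene, on H2AK119ub but off its RNF2 peak. The FOXD genes had 3.32-fold upstream of FOXD2 and 2.66-fold over the start of FOXD3. FOXE1, FOXF2, FOXL1 and FOXI3 had 1 peak each, at 2.81-fold, 2.95-fold, 3.37-fold and 3.09-fold, and FOXI2 and FOXH1 had 2 each, with tops of 3.23-fold and 2.83-fold. Apart from the stronger peak at FOXJ1, the peaks at lineage factors all had a −log10 q under 4. Those at FOXD3, FOXE1 and one of those at FOXH1 were near the list minimum, at 1.55, 1.58 and 1.58.

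The broadly expressed genes held most of the YTHDF1 peaks, and held them at a lower density. There were 39 wild-type peaks in 2578.9 kb, or 1.51 per 100 kb, against 1.81 over coding genes of more than 10 kb. The lineage factors held 17 in 199.5 kb, or 8.52 per 100 kb, against 4.32 over coding genes of at most 10 kb. Most peaks over broadly expressed genes were near the list minimum. A −log10 q under 2 was found for 29 of these 39 and for 6 of the 17 over lineage factors. The median −log10 q was 1.87 and 2.23. Over coding genes, 14578 of 24050 YTHDF1 peaks were under 2, with a median of 1.87. A peak lay over 12 of 25 lineage factors, beside 29.4% of coding genes of at most 10 kb, and 11 of 15 broadly expressed genes, beside 63.9% of those over 10 kb. Within 2 kb of the gene start, or of both ends where the strand was not known, the counts were 9 of 25 and 5 of 15. The share of coding genes was 23.4%. Among these members, the strand was not known for FOXA2, FOXH1, FOXJ1, FOXL1 and FOXM1. FOXJ3 had 4 peaks of 2.62-fold to 3.27-fold, all 73.1 kb or more from its outermost start and on neither RNF2 nor H2AK119ub. FOXP2 had 6 of 2.75-fold to 2.94-fold, 124.9 kb or more from the start and likewise on neither. FOXN3 had 5 of 2.65-fold to 2.99-fold, 105.7 kb or more from the start, of which 3 lay on H2AK119ub. All 4 peaks of FOXP4, of 2.80-fold to 3.22-fold, lay within the gene on both RNF2 and H2AK119ub. FOXN4 had 4 peaks, with the strongest, 2.95-fold, upstream of its start. FOXO1 had 2.58-fold upstream of its start on both PRC1 features and 3.13-fold within the gene on neither. FOXO3 had 2.72-fold and 2.95-fold within the gene, both off RNF2. FOXK1 had 2.95-fold within the gene, and FOXM1, which drives genes of cell division, had 2.81-fold beyond its higher-coordinate end, both on H2AK119ub alone. YTHDF1 was not listed at FOXJ2, FOXK2, FOXN1 or FOXN2, nor at the lineage factors FOXB1, FOXB2, FOXC1, FOXC2, FOXD1, FOXD4, FOXE3, FOXF1, FOXI1, FOXL2, FOXQ1, FOXR1 and FOXS1.

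**Figure D4:**
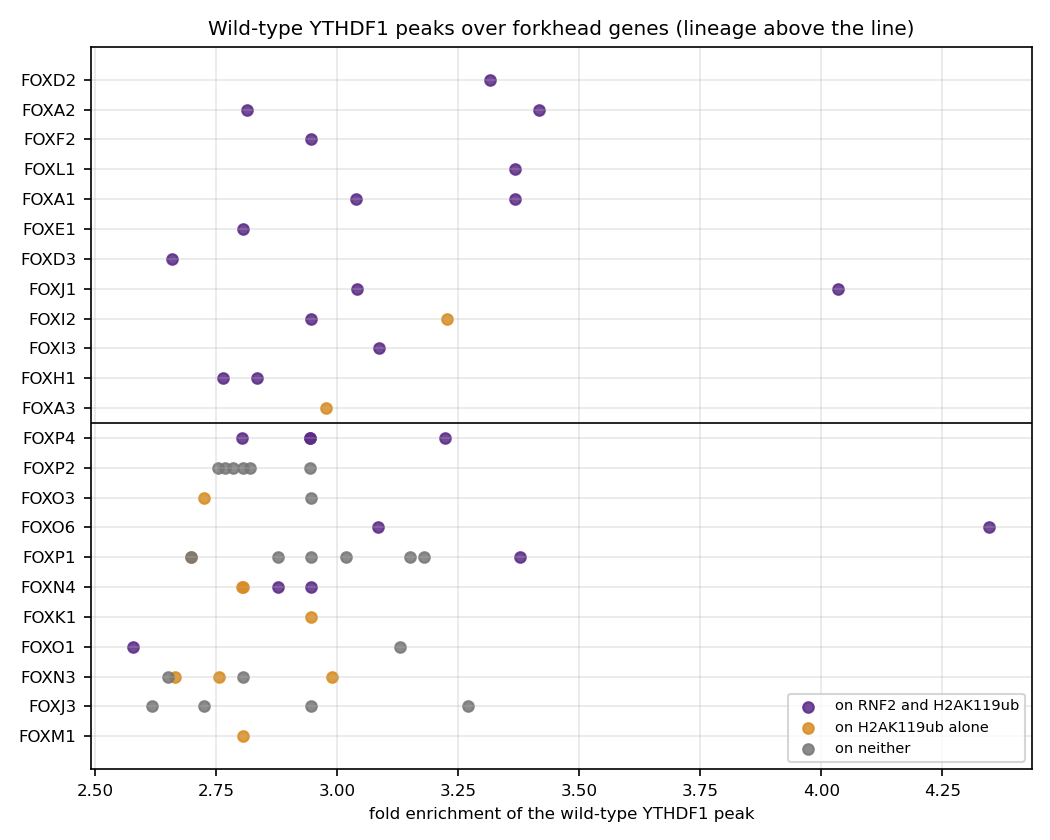
Fold enrichment of each wild-type YTHDF1 peak (x axis) over the 23 forkhead genes with one, lineage factors above the line. Colour shows whether the peak overlapped RNF2 and H2AK119ub, H2AK119ub alone or neither. The 17 lineage peaks all lie on H2AK119ub and 15 also on RNF2, and 20 of the 39 peaks over broadly expressed genes lie on neither. At genes that RNF2 or H2AK119ub covered in full with their flanks, a counted peak could not miss it.

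Most YTHDF1 peaks over lineage factors and fewer of the others overlapped PRC1 features, but at many lineage factors this overlap was fixed by coverage. Of the 17 YTHDF1 peaks over lineage factors, 15 overlapped RNF2 (88.2%) and 17 H2AK119ub. Of the 39 over broadly expressed genes, 10 overlapped RNF2 (25.6%) and 19 H2AK119ub (48.7%). Over all 24050 YTHDF1 peaks at coding genes the shares were 19.5% and 38.1%. RNF2 covers far more of the lineage regions, as given above. At the 17 lineage factors that RNF2 covered in full, a counted YTHDF1 peak could not miss RNF2. This fixed the overlap for the peaks at FOXA1, FOXA2, FOXD2, FOXD3, FOXE1, FOXF2, FOXJ1 and FOXL1. Only those at FOXA3, FOXH1, FOXI2 and FOXI3 could miss RNF2, and the FOXA3 peak and 1 at FOXI2 did. Likewise, a counted peak could not miss H2AK119ub at the 19 lineage factors that it covered in full, FOXH1 among them. How much of the other overlap goes with coverage was not tested. All 3 wild-type features lay over 12 lineage factors and 11 broadly expressed genes, beside 45.2% of coding genes. RNF2 and H2AK119ub without YTHDF1 lay over 10 and 3, and H2AK119ub alone over 3 and 1. No share of coding genes was computed for these last combinations, and the 45.2% was not split by gene length. The counts are therefore a description only.

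Several members without a YTHDF1 peak over the gene had one elsewhere in their RNF2 domain. Of the 13 RNF2 peaks of at least 20 kb over members, 12 overlapped a wild-type YTHDF1 peak, and of the other 289 such peaks in the list, 194 did (67.1%). The exception was the FOXD1 domain. The domain shared by FOXC2 and FOXL1 held 4 YTHDF1 peaks, and those of FOXB2 held 2 and of FOXB1, FOXC1, FOXF1 and FOXL2 1 each. The 13 domains held 20 YTHDF1 peaks in 455.0 kb (4.4 per 100 kb) and the other 289 held 372 in 10054 kb (3.7 per 100 kb). Both densities were lower than that over all 29310 RNF2 peaks, 8.54 per 100 kb. Those peaks had a median width of 1.35 kb, and 17.4% of them overlapped YTHDF1. The member domains were wider, with a median of 35.0 kb against 29.9 kb, and the share with a peak was not adjusted for width.

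Proteins that act with or on forkhead factors were looked at as a second list of 11 genes. They comprised the corepressors TLE1 to TLE4, SMAD2 and SMAD3, the kinases AKT1, AKT2 and SGK1, and the acetyltransferases CREBBP and EP300. In knockdown cells none had a YTHDF1 peak, and in wild-type cells all 11 had one, beside 0.92% and 63.9% of coding genes over 10 kb, the length class that holds all 11. The top wild-type folds ran from 2.94-fold at SGK1 to 4.12-fold at SMAD2, with 3.92-fold at TLE3 and 3.79-fold at TLE4. All 11 had RNF2, from 2.97-fold at EP300 to 8.08-fold at SMAD2, with no peak wider than 8.21 kb, and all 11 had H2AK119ub. The shares of coding genes over 10 kb with these were 78.1% and 83.8%. The 11 genes had a median length of 105.9 kb, and 8 of their 29 YTHDF1 peaks (27.6%) lay on RNF2.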

How the data were processed

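ChIP-seq libraries of H1 cells were represented by 4 deposited peak lists, each merged by the authors from 2 replicates. The 4 input libraries were not used here. The build was hg38, and the tools were MACS2 2.1.0, SICER 1.1, Bowtie2 2.2.5, Trimmomatic 0.35, Picard and SAMtools 1.3.1, per the submitters' processing notes. The sources used here do not say which caller made which list.

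The authors' YTHDF1 and RNF2 lists had the narrowPeak layout, with a fold enrichment (ratio), a −log10 q and a score per peak. Their 3 columns of −log10 p were not used. The deposited H2AK119ub list carried only a score, of unstated scale and at most 1000. Its intervals were multiples of 200 bp. These deposited values were used within a list only, apart from a common −log10 q minimum of 4 on both YTHDF1 lists. Depth per library was unknown.

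Genes, strand and promoter bases came from RefSeq tables of GRCh38.p14. Strand was known for 30 of 40 members, and for the other 10 both gene ends were used as start windows. Overlaps were computed with Python 3.11.15, pandas 2.3.3 and NumPy 2.4.6 and checked on simulated intervals. Only counts, medians and background shares are given, and all 40 members were to be accounted for, with full values for those with YTHDF1, the widest RNF2 domains or no RNF2. The members, lists and the 20 kb and 10 kb limits were chosen with earlier results of these data known. Alternatives were other flanks, overlap rules, stricter peaks, start windows, merged peaks, autosomes alone and other group assignments. 1 gene of the list of forkhead partner proteins is not reported here, and the counts and medians of that list are over the other 11.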

Additional observations from a re-analysis of the deposited data

How the results depend on the processing

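Of 142 alternative values for 20 results, 132 were within 1.5 times of the value reported. Some of the 132 could not differ. All members lie on autosomes, so their counts on autosomes alone were fixed. Leaving out FOXH1 and FOXD3 could not alter the broadly expressed group, which holds neither. Values within 1.5 times could still move by several genes. With flanks of 5 kb, wild-type YTHDF1 lay over 28 members in place of 23. It lay over 17 lineage factors in place of 12, and over 11 broadly expressed genes with either flank. With a −log10 q of at least 4, wild-type YTHDF1 lay over 3 members in place of 23, 1 lineage factor in place of 12 and 2 broadly expressed genes in place of 11. Within 2 kb of the gene start, or of both ends where the strand was not known, it lay over 14 members and 5 broadly expressed genes. Counting peaks by their midpoint gave RNF2 at 13 lineage factors in place of 22 and H2AK119ub at 16 in place of 25, since wide domains have midpoints outside short genes. In start windows the broadly expressed genes had median covered shares of 67.51% for RNF2 and 100% for H2AK119ub, in place of 3.73% and 27.3%. With FOXN1, FOXN4, FOXO6 and FOXP2 counted as lineage factors, the median widest RNF2 peak of the remaining broadly expressed genes was 2.43 kb in place of 4.50 kb. On autosomes alone the background shares were 0.873% for knockdown YTHDF1, 56.5% for wild-type YTHDF1, 73.8% for RNF2 and 81.0% for H2AK119ub. The length classes of the background were chosen after the data had been seen. No paired analysis was possible because the replicates of each group had been merged into 1 list, and no replicate could be left out. Depth limits what the absence of a peak can show.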
